A study of Rattus norvegicus with 8 samples.

Results

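The blood-nerve barrier and perineurial junction genes examined here were Cldn1, Cldn5, Cldn11, Tjp1, Ocln, Slc2a1, Abcb1a and Mfsd2a. They were taken by gene symbol from the table of normalized read counts, where all 8 had a row among 32545 genes. The rule that names them uses no measured value, although the list was drawn up with earlier results of these data known. Bulk RNA-seq had been carried out on rat sciatic nerve, with 3 PEG-fused peripheral nerve allografts (PNAs; PEG), 3 negative control PNAs (NC) and 2 unoperated nerves (Unop). All animals were female outbred Sprague Dawley rats (Envigo) aged 3 to 6 months, and both kinds of PNA were excised at 14 days postoperatively (PO). Every PNA came from a donor rat that was neither tissue matched nor immunosuppressed. Each was rinsed in hypotonic saline and methylene blue and was sutured into an ablated host nerve. By the methods, the polyethylene glycol (PEG) step was the treatment that set the PEG-fused PNAs apart from the NC PNAs. PEG-fused PNAs were also checked for evoked action potentials after repair, which NC PNAs lacked. Muscle adhering to NC PNAs could not be fully trimmed. The sample descriptions begin with G in PEG-fused and with I in NC PNAs, and the meaning of these letters is not given there. The Unop nerves had no surgery, and comparisons with them therefore join cutting, grafting and time. Libraries are numbered within their group as in the labels (PEG 1, NC 1, Unop 1 and so on).

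A peripheral nerve is sealed at 2 sites: the perineurium, a sleeve of flattened cells around each fascicle, and the endothelium of the endoneurial capillaries. At both sites, claudins and occludin span the membrane of adjoining cells and are tied to the actin cytoskeleton by zonula occludens scaffolds, while selective carriers move nutrients inward and pumps return foreign compounds to the blood. Claudin-1 is known as the perineurial claudin and claudin-5 as the endothelial one, and a cut nerve is known to lose its barrier for a time after injury.

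Promoter sequences of 7 of the 8 genes were found in the RefSeq table of rat promoters (build GRCr8), and 250 bases before each start site were searched on both strands for 4 short motifs. The first was CAGGTG, an E-box that Snail-type factors bind. The second was GGGCGG, the GC box bound by Sp1. The core promoter motif TATAAA was the third and the upstream motif CCAAT the last. In that order, they were found in 15.9%, 30.5%, 12.9% and 34.0% of 33469 promoters of the same length. The 3 sequences that follow are shown because Cldn1 and Cldn11 were the junction genes furthest below the level of the Unop nerves in the PNAs, and Ocln was the one lower in PEG-fused than in NC PNAs. Capitals mark the motifs.
Cldn1 (chr11:87926126-87926375, plus strand): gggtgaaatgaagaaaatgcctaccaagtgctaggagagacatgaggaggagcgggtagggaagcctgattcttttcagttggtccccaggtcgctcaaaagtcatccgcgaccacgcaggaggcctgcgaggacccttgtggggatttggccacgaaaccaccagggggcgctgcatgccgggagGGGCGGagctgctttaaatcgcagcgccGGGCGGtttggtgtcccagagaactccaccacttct
Cldn11 (chr2:114149540-114149789, minus strand): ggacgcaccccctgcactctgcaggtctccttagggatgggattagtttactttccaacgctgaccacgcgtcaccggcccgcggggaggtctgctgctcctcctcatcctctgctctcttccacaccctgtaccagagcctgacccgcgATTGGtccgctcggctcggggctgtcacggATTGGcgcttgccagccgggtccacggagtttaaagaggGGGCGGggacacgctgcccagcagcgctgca
Ocln (chr2:33441199-33441448, minus strand): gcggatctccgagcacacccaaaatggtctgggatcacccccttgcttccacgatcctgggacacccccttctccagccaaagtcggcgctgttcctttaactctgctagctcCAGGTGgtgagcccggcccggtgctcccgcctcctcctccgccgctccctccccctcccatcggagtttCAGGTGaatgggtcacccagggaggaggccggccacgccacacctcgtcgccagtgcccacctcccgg
The Ocln window held 2 E-boxes, whose first bases lay 137 and 68 bases before the start, and none of the other motifs. The E-box letters were in none of the windows of Cldn1, Cldn5, Cldn11, Tjp1, Slc2a1 and Abcb1a. GC boxes were found 2 times in the Cldn1 window, 3 times in that of Slc2a1 and 1 time each in those of Cldn5, Cldn11 and Abcb1a. The upstream motif was found 2 times each in the windows of Cldn5 and Cldn11, and the core promoter motif in none of the 7. A match describes the letters of these windows only, and binding was not measured.

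Depth was similar among the libraries, between 32472925 and 39959620 reads on genes. The 10 markers of myelinating Schwann cells identified the Unop tissue as nerve, and their summed level in the PNAs was between 0.550% and 2.38% of the Unop mean. Libraries stood apart for skeletal muscle: 7 muscle markers summed to 791018 normalized counts in NC 1 and 287170 in NC 3, against 3113 to 44417 in the other 6 libraries. In bulk tissue, fewer cells of a type and less RNA per cell cannot be told apart. Each library came from 1 animal, as the methods of the study state, so p-values measure the spread between animals of a group.

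The perineurial and claudin members were far below the Unop level in both kinds of PNA. Cldn1, the claudin of the perineurium, was at 18783 and 14248 normalized counts in the Unop nerves. It was at 1318, 1495 and 1587 in PEG 1 to PEG 3, and at 1764, 749.8 and 182 in NC 1 to NC 3. The Unop nerves lay above all PNAs without overlap, the PEG-fused PNAs were close together, and the NC PNAs spread on both sides of them. PEG-fused PNAs had a mean of 1467 ± 137 (SD, n = 3), NC PNAs one of 899 ± 801 (SD, n = 3) and Unop nerves one of 16516 ± 3207 (SD, n = 2), so that 8.88% and 5.44% of the Unop mean were left. Cldn1 was downregulated by both comparisons with Unop nerves, with log2 fold changes of -3.48 ± 0.75 (SE, adjusted p = 0.00425 by limma) in PEG-fused PNAs and -4.71 ± 0.75 (adjusted p = 0.000689 by limma) in NC PNAs. Between PEG-fused and NC PNAs the log2 fold change was 1.23 with a 95% interval from -0.31 to 2.77, and did not pass the test (adjusted p = 0.203 by limma). This result rested on NC 1, the library with the most muscle transcript: without it the log2 fold change was 1.98 (adjusted p = 0.0242 by limma). Without NC 3 it was 0.35.

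Cldn11, a claudin best known from central myelin and the blood-testis barrier, was at 292 and 346 normalized counts in the Unop nerves. It was at 11.1, 9.35 and 40.3 in the PEG-fused PNAs and at 50.04, 12.9 and 11.6 in the NC PNAs. Each kind of PNA had 1 library several fold above the other two, PEG 3 and NC 1, and all PNAs stayed below both Unop nerves. These levels rest on 10 to 56 reads per PNA library. The log2 fold change was -4.20 ± 0.74 (SE) in PEG-fused PNAs and -3.94 ± 0.74 (SE) in NC PNAs relative to Unop nerves (adjusted p = 0.00149 and 0.00176 by limma). The difference between the PNAs, -0.26 with a 95% interval from -1.79 to 1.26, did not pass the test (adjusted p = 0.801 by limma) and changed sign when PEG 2 (0.11) or NC 1 (0.39) was left out.

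Cldn5, the main claudin of barrier endothelium, was listed at 0 in all 8 libraries and could not be tested. A count of 0 allows up to 3 reads in a library of 32472925 reads on genes or more, for counting error only. Other endothelial transcripts were plentiful in the same libraries: Cdh5, the cadherin of endothelial junctions, was at 2929 to 5973 normalized counts. The reason for the 0 values was not tested, and no statement on the level of Cldn5 in these nerves is made.

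**Figure D1:**
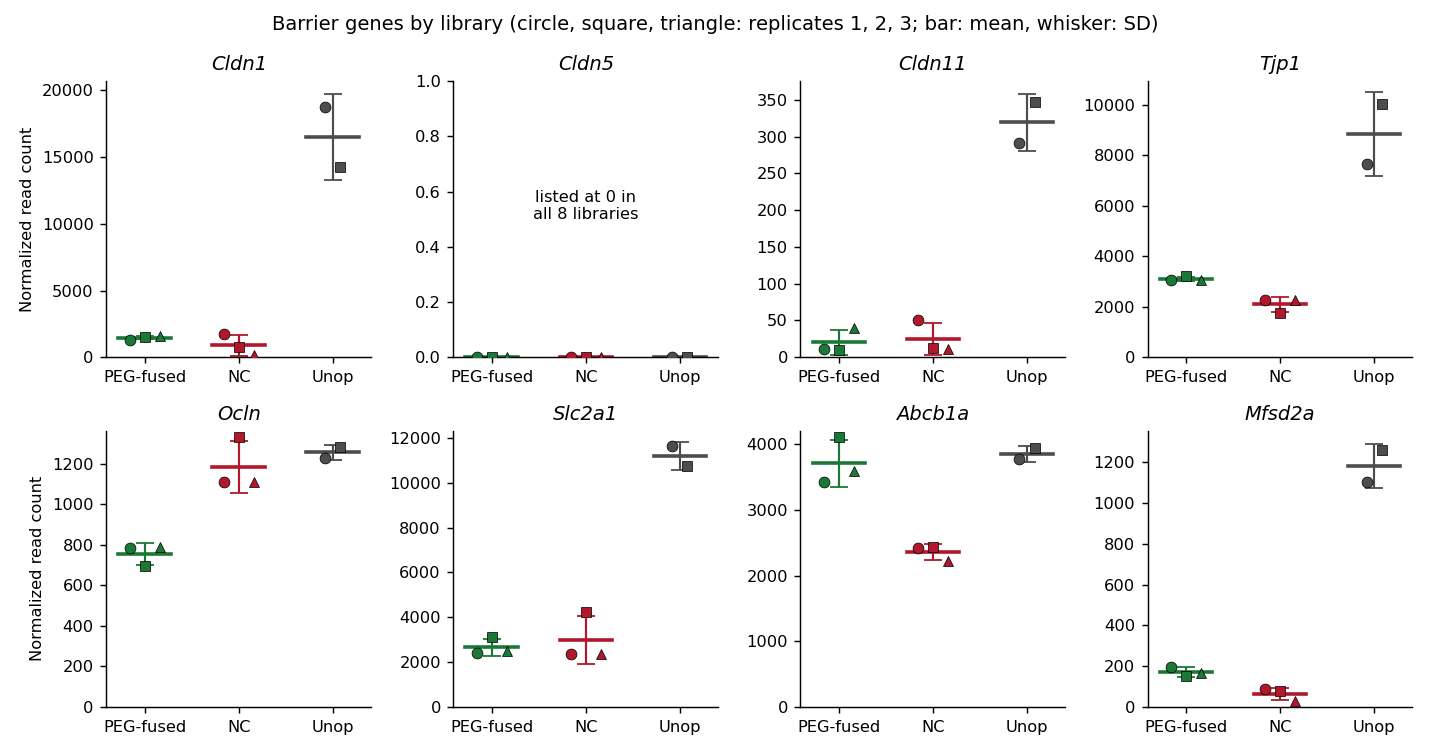
Normalized read counts (linear axes from 0) of the 8 barrier genes by group; each point is 1 library, the horizontal bar is the mean and the whisker the SD. Cldn1, Cldn11, Tjp1, Slc2a1 and Mfsd2a were highest in both Unop nerves, Ocln was lowest in the 3 PEG-fused PNAs (694 to 789), Abcb1a was lowest in the 3 NC PNAs (2219 to 2434), and Cldn5 was listed at 0.

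The junction scaffold and occludin differed between the PNAs in opposite directions. Tjp1 encodes ZO-1, the scaffold that ties claudins and occludin to actin. It was at 3072, 3200.1 and 3054 normalized counts in the PEG-fused PNAs, at 2264, 1733 and 2274 in the NC PNAs and at 7673 and 10018 in the Unop nerves. The 3 groups did not overlap, with the order Unop, PEG-fused and NC from high to low. Tjp1 was higher in PEG-fused than in NC PNAs (log2 fold change 0.58 ± 0.14, SE, adjusted p = 0.0146 by limma). Without PEG 2, the adjusted p was 0.0554 by limma at a log2 fold change of 0.56. Tjp1 was 2.82-fold lower in PEG-fused PNAs (adjusted p = 6.98e-05 by limma) and 4.23-fold lower in NC PNAs (adjusted p = 8.15e-06 by limma) than in Unop nerves, which left 35.1% and 23.6% of the Unop mean.

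Ocln encodes occludin, a membrane protein of tight junctions, and was the only member significantly lower in PEG-fused than in NC PNAs. It was at 785, 694 and 789 normalized counts in the PEG-fused PNAs, at 1108, 1331 and 1108 in the NC PNAs and at 1229 and 1282 in the Unop nerves. The PEG-fused PNAs lay below every other library, and the NC PNAs lay on both sides of the Unop nerves. The log2 fold change between PEG-fused and NC PNAs was -0.64 ± 0.10 (SE, adjusted p = 0.00349 by limma), a 1.56-fold difference. Relative to Unop nerves, Ocln was lower in PEG-fused PNAs (log2 fold change -0.73 ± 0.12, SE, adjusted p = 0.000855 by limma), at 60.2% of the Unop mean. In NC PNAs it was at 94.2% of that mean, and the log2 fold change of -0.09, with a 95% interval from -0.36 to 0.18, did not pass the test (adjusted p = 0.513 by limma).

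The transport members had 3 patterns. Slc2a1 encodes the glucose transporter GLUT1, which carries glucose across barrier endothelium and perineurium. It was at 2401, 3103 and 2502 normalized counts in the PEG-fused PNAs, at 2363, 4241 and 2377 in the NC PNAs and at 11646 and 10749 in the Unop nerves. The 2 kinds of PNA overlapped and both lay far below the Unop nerves. Slc2a1 fell by 2.08 on the log2 scale in PEG-fused PNAs and by 1.96 in NC PNAs relative to Unop nerves (SE 0.25 each, adjusted p = 0.000172 and 0.000176 by limma). Between the PNAs the difference was -0.12 with a 95% interval from -0.62 to 0.39 (adjusted p = 0.723 by limma), and it was 0.16 without NC 2, the NC library with the highest level.

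Abcb1a encodes a P-glycoprotein, the efflux pump of the capillary wall, and was the member closest to the Unop level in PEG-fused PNAs. It was at 3432, 4113 and 3596 normalized counts in the PEG-fused PNAs, at 2422, 2434 and 2219 in the NC PNAs and at 3770.2 and 3941 in the Unop nerves. The NC PNAs lay below all other libraries, and the PEG-fused PNAs lay on both sides of the Unop nerves. The log2 fold change was 0.65 ± 0.09 (SE, adjusted p = 0.0019 by limma) for PEG-fused against NC PNAs and -0.71 ± 0.10 (SE, adjusted p = 0.000341 by limma) for NC PNAs against Unop nerves. PEG-fused PNAs were at 96.3% of the Unop mean, where the log2 fold change of -0.06 had a 95% interval from -0.29 to 0.17 (adjusted p = 0.644 by limma). Its rat paralog Abcb1b is not analysed here, and reads shared by near-identical genes may be split or lost in counting.

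Mfsd2a encodes the lysophosphatidylcholine carrier of barrier endothelium, which is known to hold back vesicle transport through the capillary wall. It was at 197, 151 and 166 normalized counts in the PEG-fused PNAs, at 85.8, 76.4 and 30.9 in the NC PNAs and at 1106 and 1261 in the Unop nerves. The 3 groups did not overlap, in the order Unop, PEG-fused and NC, and the lowest value, NC 3, rests on 32 reads. Mfsd2a had the largest difference between the PNAs among the members called, 2.86-fold higher in PEG-fused than in NC PNAs (log2 fold change 1.52 ± 0.35, SE, adjusted p = 0.0147 by limma). The PEG-fused PNAs still held 14.5% of the Unop mean and the NC PNAs 5.44%, with log2 fold changes of -2.79 ± 0.39 and -4.30 ± 0.39 (SE, adjusted p = 0.00045 and 2.77e-05 by limma).

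Of the 8 members, 7 passed the filter on low counts and 4 were called between PEG-fused and NC PNAs at adjusted p under 0.05, beside 28.9% of all 16478 tested genes. Tjp1, Abcb1a and Mfsd2a were higher in PEG-fused PNAs, a direction called for 15% of all tested genes, and Ocln was lower, as were 13.9%. Relative to Unop nerves, 6 members were lower and none higher in PEG-fused PNAs, the exception being Abcb1a. In NC PNAs 6 were lower and none higher as well, the exception being Ocln, and the log2 fold changes of all 7 were below 0 in both comparisons. Over all tested genes, lower calls made up 28.6% in PEG-fused and 32.3% in NC PNAs, higher calls 29.1% and 32.2%, and both together 57.7% and 64.5%. The median log2 fold change over the 7 tested members was 0.58, -2.08 and -2.08 in the 3 comparisons, where that over all tested genes was between 0.00 and 0.02. With a further threshold of 1 on the log2 scale in either direction, 1 member remained called between the PNAs, which was Mfsd2a, and 5 in each comparison with Unop nerves. The share of all tested genes past both thresholds was not computed, so these counts cannot be set beside a background.

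**Figure D2:**
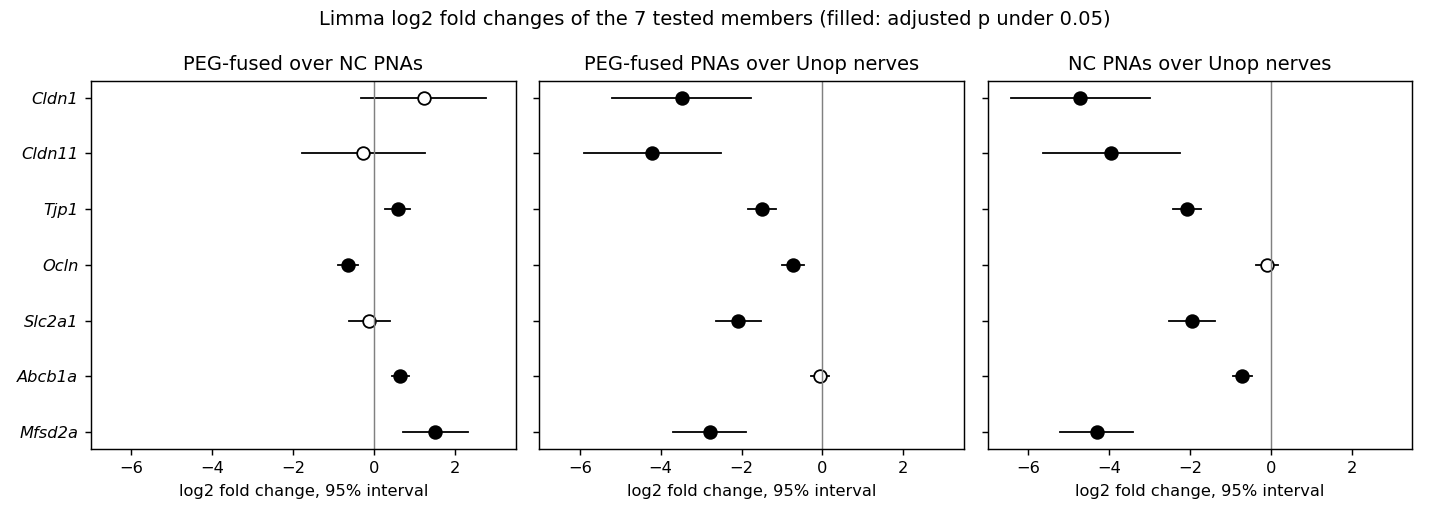
Limma log2 fold changes (points) with 95% intervals (lines) of the 7 tested barrier genes in the 3 comparisons; filled points had adjusted p under 0.05. Ocln lies left of 0 between the PNAs (-0.64), where Tjp1 (0.58), Abcb1a (0.65) and Mfsd2a (1.52) lie right of it, and the intervals of Cldn1, Cldn11 and Slc2a1 span 0.

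Markers of the cells that form or surround the barrier were set beside these genes, and their part in the results was not tested. The 11 measured perineurial markers, of which Itgb4 was the most abundant and Lypd2 was listed at 0, summed to 16172 to 19609 normalized counts in PEG-fused PNAs, 8152 to 10816 in NC PNAs and 92172 to 95813 in Unop nerves. Of 10 tested perineurial markers, 8 in PEG-fused PNAs and 7 in NC PNAs were lower than in Unop nerves, and 2 and 1 were higher (2 and 2 without Unop 1). In PEG-fused PNAs that was 80% lower and 20% higher, beside 28.6% and 29.1% of all tested genes. In NC PNAs it was 70% and 10%, beside 32.3% and 32.2%. Itgb4, a laminin-binding integrin subunit of the perineurial sheath and of Schwann cells, fell by 4.34 and by 4.76 on the log2 scale (adjusted p = 1.37e-06 and 7.22e-07 by limma). Itgb4 and its partner Itga6, both of which Schwann cells also carry, made up most of the sum in Unop nerves. The sum is thus not one of perineurial cells alone, and the part of Schwann cells in it was not tested. The markers that were higher than in Unop nerves were Crabp2, a retinoic acid binding protein, and Moxd1, a monooxygenase-like protein. Crabp2 was at 4188 to 5889 normalized counts in PEG-fused PNAs, 332% of the Unop mean (log2 fold change 1.88, adjusted p = 0.00196 by limma), and at 140.0% of that mean in NC PNAs, which did not pass the test (0.65, adjusted p = 0.136 by limma). Moxd1 was at 1286% of the Unop mean in PEG-fused PNAs and at 793% in NC PNAs (3.75 and 3.03, adjusted p = 7.97e-05 and 0.000192 by limma), and these log2 fold changes were 4.36 and 3.64 without Unop 1 and 3.13 and 2.42 without Unop 2. Between the PNAs, 5 perineurial markers (50%) were higher in PEG-fused PNAs and none lower, beside 15% and 13.9% of all tested genes. Among the 5 were Itga6 (log2 fold change 1.00, adjusted p = 0.00288 by limma), Crabp2 (1.24, adjusted p = 0.0207 by limma) and Kcnk2 (1.08, adjusted p = 0.0029 by limma), a potassium channel. That count was 2 without PEG 2 and 3 without PEG 1, and the call of Crabp2 was lost without PEG 1 (1.22), PEG 2 (1.12) or NC 3 (1.22).

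The 14 measured endothelial markers, led by Eng, summed to 26913 to 33048 normalized counts in PEG-fused PNAs, 23456 to 30071 in NC PNAs and 38146 to 40952 in Unop nerves, so that the 2 kinds of PNA overlapped. Of 13 tested, 1 was higher and 1 lower in PEG-fused than in NC PNAs, 7.69% each beside 15% and 13.9% of all tested genes. The higher one was Eng, a receptor of the transforming growth factor family carried by endothelium (log2 fold change 0.59, adjusted p = 0.0079 by limma). The lower one, Kdr, was not called in 11 of the alternative analyses. Relative to Unop nerves, 5 were lower and 1 higher in PEG-fused PNAs, 38.5% and 7.69% beside 28.6% and 29.1% of all tested genes. In NC PNAs 10 were lower, 76.9% beside 32.3%, and none higher, beside 32.2%. Without PEG 1, NC 1 or NC 3, or with the replicate number as a block, 1 was higher in NC PNAs. The higher one in PEG-fused PNAs was again Eng, the most abundant of the list, at 7869 to 9846 normalized counts against 4361 to 4898 (log2 fold change 0.90, adjusted p = 0.000549 by limma). The endothelial sums spanned a narrower range than Mfsd2a and Slc2a1 did across the same libraries, but some single markers ranged more widely than the sum. Mmrn2 and Tek, among the markers lower than in Unop nerves in both kinds of PNA, ranged from 903 to 4028 and from 1011 to 3934 normalized counts. The part of endothelium in the levels of Mfsd2a and Slc2a1 was not tested.

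Leukocyte markers, 7 in all and led by Cd68, summed to 47709.5 to 54920.5 normalized counts in PEG-fused PNAs, 68995 to 99055 in NC PNAs and 6775 to 8948 in Unop nerves. They were thus higher in NC than in PEG-fused PNAs, as Ocln was, and lowest in the Unop nerves, whereas Ocln in the Unop nerves lay within the range of the NC PNAs. The part of leukocytes in the Ocln values was not tested.

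**Figure D3:**
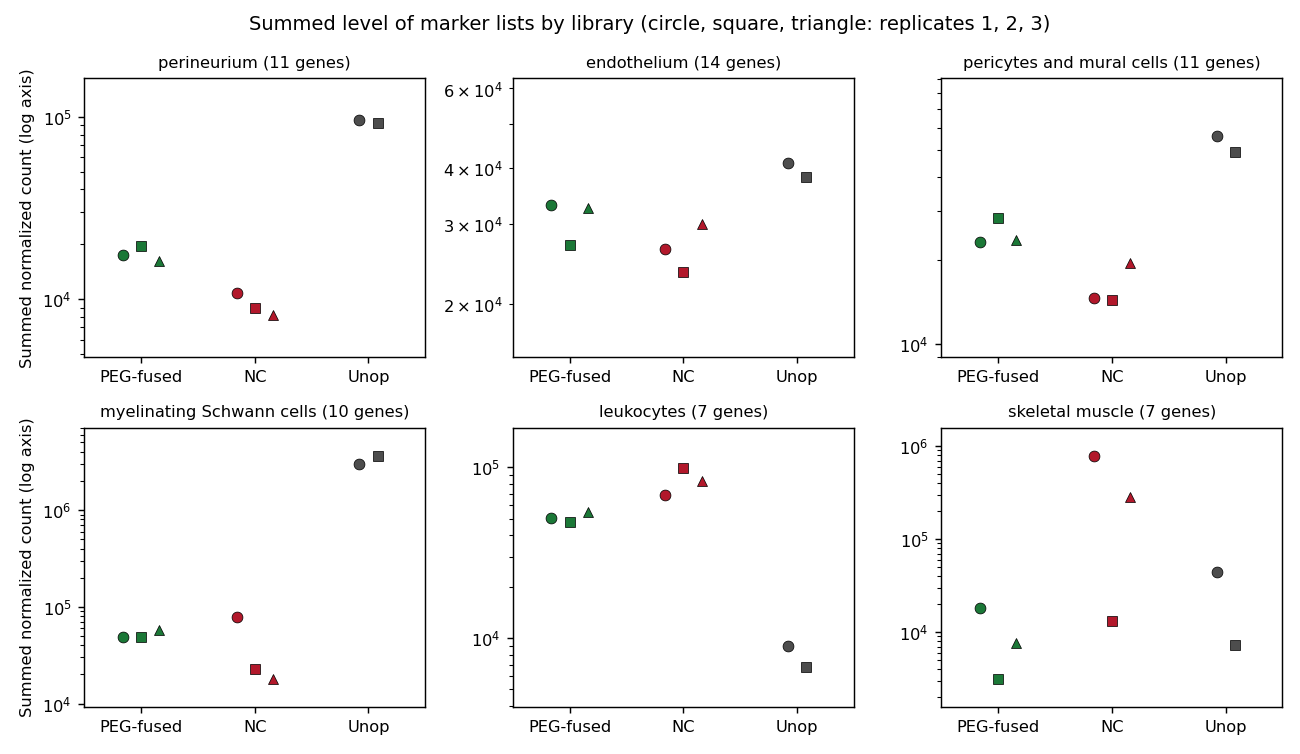
Summed normalized counts (log axes) of 6 lists of cell type markers, 1 point per library. The sum of the perineurial list, of which Itgb4 and Itga6, also carried by Schwann cells, make up most in Unop nerves, separates the 3 groups (Unop 92172 to 95813, PEG-fused 16172 to 19609, NC 8152 to 10816). The endothelial sums of the PNAs overlap, and NC 1 and NC 3 stand apart for skeletal muscle.

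To set Ocln, Abcb1a and Mfsd2a beside the endothelium of the same library, the mean log2 level of the 13 tested endothelial markers was subtracted. Occludin belongs to the junctions of the perineurium as well, so for Ocln this gives no level per endothelium. An exact two-sided permutation test over samples can give no p below 0.1 for 3 against 3 samples and none below 0.2 for 3 against 2, so none of these differences could reach 0.05. Mfsd2a relative to the markers was at -3.33, -3.34 and -3.49 in PEG-fused PNAs, at -4.26, -4.19 and -5.91 in NC PNAs and at -1.30 and -1.05 in Unop nerves, again without overlap. The difference between PEG-fused and NC PNAs was 1.40 (exact permutation p = 0.1), and PEG-fused PNAs stayed 2.21 below Unop nerves (exact permutation p = 0.2).

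Ocln relative to the markers was at -1.34, -1.15 and -1.25 in PEG-fused PNAs, at -0.58, -0.08 and -0.78 in NC PNAs and at -1.15 and -1.02 in Unop nerves. On this scale the NC PNAs stood above the other groups, by 0.76 over PEG-fused PNAs (exact permutation p = 0.1) and by 0.60 over Unop nerves (exact permutation p = 0.2). Abcb1a relative to the markers was at 0.78, 1.42 and 0.94 in PEG-fused PNAs, at 0.54, 0.79 and 0.22 in NC PNAs and at 0.46 and 0.60 in Unop nerves. Here PEG 1 and NC 2 overlapped, and the difference of 0.53 between the PNAs had an exact permutation p = 0.2. The difference of -0.01 between NC PNAs and Unop nerves (exact permutation p = 1) turned to 0.14 without NC 3 and 0.05 without Unop 2.

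**Figure D4:**
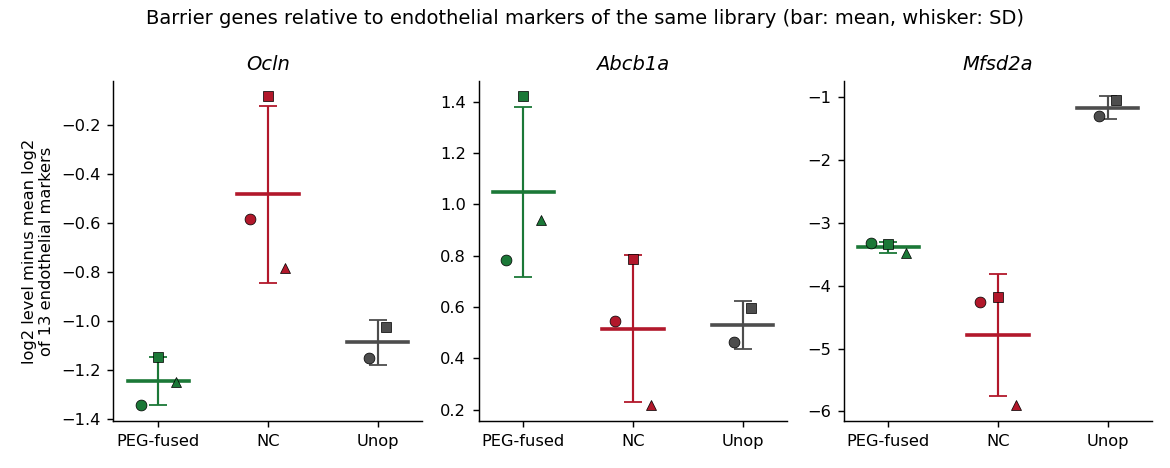
Log2 levels of Ocln, Abcb1a and Mfsd2a minus the mean log2 level of 13 endothelial markers of the same library; points are libraries, bars are means and whiskers SDs. Mfsd2a remains highest in Unop nerves and lowest in NC PNAs, Ocln is highest in NC PNAs, and the Abcb1a values of the 2 kinds of PNA overlap.

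Among the other claudins, 20 of 21 listed had a row, 4 were at 0 in every library (Cldn8, Cldn16, Cldn17 and Cldn18) and 14 were tested. Relative to Unop nerves, 8 were lower and 4 higher in PEG-fused PNAs, 57.1% and 28.6% beside 28.6% and 29.1% of all tested genes. In NC PNAs 9 were lower and 4 higher (2 higher without Unop 1), 64.3% and 28.6% beside 32.3% and 32.2%. Cldn19, the claudin of Schwann cell membranes, was singled out after its values were seen as the most abundant: it was at 18843 and 25081 normalized counts in Unop nerves and between 70.4 and 648 in the PNAs, where the highest value was that of NC 1. Cldn24 and its close relative Cldn22 fell as well, from 679.7 and 1025 in Unop nerves to 3.11 and 55.1 in PEG-fused PNAs on average, and reads may be shared between such neighbors.

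Cldn4, a claudin of many epithelia, went the other way. It was at 168, 276 and 356 normalized counts in PEG-fused PNAs, at 48.3, 76.4 and 47.3 in NC PNAs and at 14.0 and 12.5 in Unop nerves, with no overlap between groups. It was higher in PEG-fused than in NC PNAs (log2 fold change 2.17, adjusted p = 0.0024 by limma) and higher in both than in Unop nerves (4.17 and 2.00, adjusted p = 2.93e-05 and 0.00133 by limma). Of 5 tested epithelial markers, 1 was higher and 1 lower in PEG-fused than in NC PNAs. That was 20% each, beside 15% and 13.9% of all tested genes. The higher one was Epcam, an epithelial adhesion molecule, at 213 to 310 normalized counts in PEG-fused PNAs, 79.1 to 117 in NC PNAs and 8.76 to 24.7 in Unop nerves. Like Cldn4, it was higher in PEG-fused than in NC PNAs (log2 fold change 1.51, adjusted p = 0.0166 by limma) and higher in both than in Unop nerves (4.08 and 2.57, adjusted p = 6.36e-05 and 0.000644 by limma), but the first of these calls was lost without PEG 2 (1.40), PEG 3 (1.46) or NC 3 (1.40). The lower one was Cdh1, the epithelial cadherin (-0.85, adjusted p = 0.00397 by limma), which made up most of the sum in Unop nerves. The 6 measured summed to 655 to 740.4 in PEG-fused PNAs and 757 to 766 in NC PNAs against 6739.7 to 9287 in Unop nerves, and their part in the Cldn4 values was not tested. Between the PNAs, 4 of the other claudins were higher in PEG-fused PNAs and 1 lower. That was 28.6% and 7.14%, beside 15% and 13.9% of all tested genes. The 1 lower was Cldn10 (log2 fold change -2.09, adjusted p = 0.00991 by limma), and the higher ones were 2 without PEG 2.

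Of the other tight junction genes, 22 of 23 had a row and 21 were tested. In PEG-fused against NC PNAs 8 were higher and 3 lower, with a median log2 fold change of 0.27, and 5 were higher without PEG 2. With all libraries, the calls made up 38.1% and 14.3%, beside 15% and 13.9% of all tested genes. Cgnl1, the junction protein paracingulin, was higher in PEG-fused than in NC PNAs (log2 fold change 1.07, adjusted p = 0.00369 by limma). Patj, of the Crumbs polarity complex, was lower, at 386 ± 39.5 against 744 ± 53.2 (SD, n = 3 each, log2 fold change -0.95, adjusted p = 0.00332 by limma). Ildr1, an angulin of junctions where 3 cells meet, was also lower (-2.21, adjusted p = 0.0118 by limma) at 1.85 to 27.97 normalized counts in the PNAs and 0 in both Unop nerves. Relative to Unop nerves, 15 of the 21 were lower and 2 higher in PEG-fused PNAs, and 16 were lower and 2 higher in NC PNAs. The shares were 71.4% and 9.52%, and 76.2% and 9.52%. Over all tested genes they were 28.6% and 29.1%, and 32.3% and 32.2%.

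Of 16 tested other barrier transporters, relative to Unop nerves 6 were higher and 6 lower in PEG-fused PNAs, 37.5% each way beside 29.1% and 28.6% of all tested genes. In NC PNAs 6 were higher and 7 lower, 37.5% and 43.8% beside 32.2% and 32.3% of all tested genes. Between the PNAs, 3 were higher and 3 lower in PEG-fused than in NC PNAs, 18.8% each beside 15% and 13.9% of all tested genes. The 3 higher calls between the PNAs were 1 without PEG 3, NC 2 or NC 3 and with the replicate number as a block. Slc40a1, the iron exporter ferroportin, was higher in PEG-fused than in NC PNAs (log2 fold change 1.06, adjusted p = 0.00422 by limma), at 505 to 509 against 195 to 324 normalized counts. Lrp8, a lipoprotein receptor that marks barrier endothelium in the brain, was lower (-1.25, adjusted p = 0.00227 by limma), and it was higher in both kinds of PNA than in Unop nerves (2.37 and 3.62, adjusted p = 2.93e-05 and 2.43e-06 by limma).

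**Figure D5:**
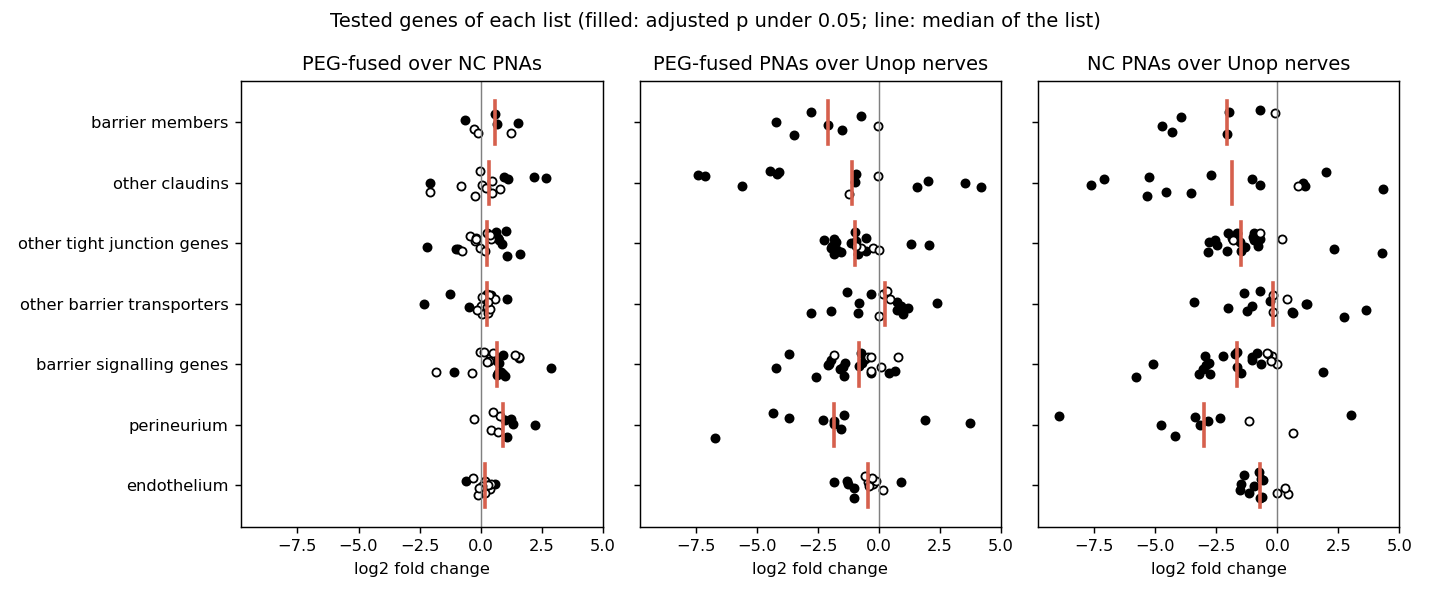
Limma log2 fold changes of the tested barrier genes and of 6 related lists in the 3 comparisons; each point is 1 gene, filled points had adjusted p under 0.05, vertical position within a list is arbitrary and the line is the median. Against Unop nerves the medians of the junction and perineurial lists lie below 0, whereas that of the other barrier transporters is 0.25 in PEG-fused PNAs and -0.18 in NC PNAs.

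Genes listed for barrier signaling were, with 1 exception, higher or not called in PEG-fused relative to NC PNAs. The list joins genes that relay these signals with genes that restrain them, so the calls give no level of signaling. Of 23 tested, 12 were higher and 1 lower, with a median log2 fold change of 0.68. That was 52.2% and 4.35%, beside 15% and 13.9% of all tested genes. Relative to Unop nerves, 15 were lower and 2 higher in PEG-fused PNAs (65.2% and 8.7%). In NC PNAs 17 were lower and 1 higher (73.9% and 4.35%). These shares were 28.6% and 29.1%, and 32.3% and 32.2%, over all tested genes. Desert hedgehog from Schwann cells is known to be needed for the perineurial sheath, and Dhh was at 1235, 1339.7 and 1334 normalized counts in PEG-fused PNAs, at 878, 557 and 583 in NC PNAs and at 5073 and 5878 in Unop nerves. The groups did not overlap, and Dhh was higher in PEG-fused than in NC PNAs (log2 fold change 0.98, adjusted p = 0.00432 by limma). Smo, which relays the hedgehog signal, was higher as well (0.93, adjusted p = 0.000624 by limma).

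Shh, another hedgehog ligand, had the largest difference between the PNAs in this list. It was at 348, 214 and 390.2 normalized counts in PEG-fused PNAs, at 64.3, 27.97 and 37.6 in NC PNAs and at 413 and 366 in Unop nerves (log2 fold change between the PNAs 2.88, adjusted p = 0.00102 by limma). The PEG-fused PNAs reached into the range of the Unop nerves, and the NC PNAs lay below both. Adgra2, the endothelial receptor GPR124 that relays Wnt7 signals, was 0.92 higher on the log2 scale in PEG-fused than in NC PNAs (adjusted p = 0.00137 by limma). Apcdd1, which restrains Wnt signals, was higher as well, at a mean of 888 normalized counts in PEG-fused and 329 in NC PNAs, against 2316 in Unop nerves. Lef1, a transcription factor of Wnt signaling also found in T cells, was the only one lower (-1.09, adjusted p = 0.0296 by limma) and passed no more without PEG 1, without PEG 2 or with the replicate number as a block.

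Pericytes wrap the capillaries whose endothelium carries these pumps and carriers. Of 11 markers of pericytes and mural cells, led by Tagln, 7 were higher and none lower in PEG-fused than in NC PNAs. Without PEG 2, 4 were higher, and without PEG 3, 3 were. With all libraries, 63.6% of the markers were higher, beside 15% of all tested genes. Their sum was 23375 to 28357 normalized counts in PEG-fused PNAs, 14419.7 to 19528 in NC PNAs and 49105 to 56119 in Unop nerves. Tagln averaged 27717 in Unop nerves and weighed most in this sum. Against Unop nerves, 2 of the 11 markers rose and 4 fell in PEG-fused PNAs. That was 18.2% and 36.4%, beside 29.1% and 28.6% of all tested genes, and the rises numbered 0 to 2 over the alternatives. In NC PNAs none rose and 6 fell (54.5%, beside 32.3%). Rgs5 and Notch3 were at 178% and 153% of the Unop mean in PEG-fused PNAs, Tagln and Myh11 at 26.5% and 19.8%. Kcnj8, the potassium channel of pericytes, was at 751 ± 34.2 against 332 ± 87.5 (SD, n = 3 each, log2 fold change 1.21, adjusted p = 0.00255 by limma) and at 725 ± 114 (SD, n = 2) in Unop nerves. In the list of leaky or activated endothelium, 3 of 7 were lower and none higher in PEG-fused than in NC PNAs. The 3 were Vcam1, Icam1 and Sele, whereas Angpt2 (mean 1818 against 1825 in NC PNAs) and Esm1 (355 against 395) were not called. The lower calls made up 42.9%, beside 13.9% of all tested genes. Vcam1 and Icam1, adhesion molecules for leukocytes that other activated cells also carry, fell by 2.09 and 1.52 on the log2 scale (adjusted p = 0.000537 and 0.000515 by limma). Plvap, the diaphragm protein of fenestrated capillaries that barrier endothelium lacks, was at 1377 ± 412 in PEG-fused PNAs, 1595 ± 189 in NC PNAs (SD, n = 3 each) and 2339.7 ± 611 (SD, n = 2) in Unop nerves, and did not pass the test between the PNAs (adjusted p = 0.447 by limma). Relative to Unop nerves, 3 of the 7 were lower and none higher in PEG-fused PNAs. That was 42.9% lower, beside 28.6% of all tested genes, and the lower calls numbered 0 to 3 over the alternatives.

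The genes whose pattern was most like that of Cldn1 were sought among 12511 tested genes with a mean of at least 100 normalized counts, by Pearson's r of log2 levels over the 8 libraries, which share group and depth. The 5 with the highest r were LOC100909657 (0.999), Dtx1 (0.994), Slc13a4 (0.991), Kcnj13 (0.990) and Sbspon (0.986). Like Cldn1, Dtx1 was high in Unop nerves (666.5 and 532 normalized counts), spread in NC 1 to NC 3 (75.1, 40.9 and 13.5) and closer together in PEG-fused PNAs (59.3 to 94.7). The r values describe 8 points in which the Unop nerves stand apart. No gene could be set beside Cldn5, which was listed at 0.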

How the data were processed

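Poly-A RNA of 8 sciatic nerve samples was sequenced as paired-end reads from stranded libraries. The authors aligned the reads to Rnor 6.0 with Tophat2, used HTSeq-count for reads per Ensembl gene, and scaled these by DESeq2 (median of ratios). The deposited signal values are these normalized read counts, which are scaled for depth but not for gene length, so that levels were not compared between genes. The strand setting of the counting is not given in the sources used here. The fold changes, statistics and p-values that the authors deposited for their own comparisons were not used.

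All 8 libraries entered limma 3.58.1 (trend, R 4.3.3) fitted to log2(normalized count + 1) by a model of 3 group means, with no covariate. On that scale the change of scarce transcripts is understated. A gene was tested if 2 or more libraries held 10 or more normalized counts of it, which kept 16478 of 22798 genes with a read, with Benjamini-Hochberg adjustment over all of them. An adjusted p under 0.05 was a call, and the prior degrees of freedom were 3.27. A common estimate of spread per gene served all 3 groups, since Unop has only 2 nerves. Of the values, 100% came out as whole reads (tolerance 0.001) once scaled by library, and these reads were used for edgeR 4.0.16 and DESeq2 1.42.0 as alternatives. Of 16478 tested genes, edgeR with TMM factors called 4977 between PEG-fused and NC PNAs, beside 4763 by limma.

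The levels of Ocln, Abcb1a and Mfsd2a relative to endothelial markers were compared by exact two-sided permutation of samples (SciPy 1.17.1, Python 3.11.15). The smallest p of that test is 0.2 for 3 against 2 samples, where 0.10 had been written in the design. Limma, edgeR and DESeq2 were tested on simulated counts.

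The members and all gene lists were chosen with earlier results of these data known. All members are named. From each other list up to 6 genes could be named: those called between PEG-fused and NC PNAs, largest change first, then those called between PEG-fused PNAs and Unop nerves. Cell type lists were named by their most abundant gene. Cldn19, Cdh5 and Moxd1 were named after their values were seen. A symbol on 2 identifiers (Slc40a1) was taken from the one with more reads. Cldn34, Pals1, Abcb1b, Foxf2, Pecam1, Ackr1, Pthlh, Pcolce2, Cd79a, Myh1, Myh4, Atp2a1 and Hba1 are not analysed here. Promoters are from RefSeq (GRCr8), a build other than that of the reads, and no transcript position was carried between them. Mfsd2a had no entry.

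Alternatives were edgeR with TMM or median-of-ratios factors, DESeq2, limma after TMM rescaling, a pseudocount of 8, no filter, a filter of 50 counts, a robust fit, a fit to just the groups of a comparison, a replicate block, a fold change threshold and each library left out in turn. The use of Cdh5 alone as the endothelial marker was chosen after seeing the data.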

Additional observations from a re-analysis of the deposited data

How the results depend on the processing

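Over 19 alternatives, the number of barrier genes called between PEG-fused and NC PNAs was 4 or moved by 1, except for the fold change threshold, which left 1. With each library left out in turn, it was between 3 and 5, the lower value without PEG 2 (Tjp1) and the higher one without NC 1 (Cldn1). Relative to Unop nerves, 5 to 6 were called in either kind of PNA over all alternatives, and 6 whichever library was left out. The calls of Ocln, Abcb1a and Mfsd2a between the PNAs held in all 18 alternatives of their fold change, with adjusted p of at most 0.0168, 0.00877 and 0.0498 by limma, edgeR or DESeq2. Reversed signs were seen for Cldn11 between the PNAs (0.11 without PEG 2, 0.39 without NC 1, -0.89 to 0.39 over libraries left out), for Slc2a1 (0.16 without NC 2, -0.26 to 0.16 over libraries left out) and for Abcb1a relative to endothelial markers in NC PNAs against Unop nerves (0.14 without NC 3, 0.05 without Unop 2, -0.15 to 0.14 over libraries left out), none of which had passed a test, and the cause was not tested. With libraries left out, the relative level differed between PEG-fused and NC PNAs by -0.91 to -0.56 for Ocln, 0.35 to 0.67 for Abcb1a and 0.84 to 1.69 for Mfsd2a.

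With the replicate block, 4, 6 and 6 members were called, as without it. Same-numbered PEG-fused and NC PNAs had deviations from the group means that correlated at 0.108, 0.109 and -0.0502, and same-numbered PNAs and Unop nerves at 0.154 and 0.136 (PEG) and 0.152 and 0.157 (NC). As 1 pair was below 0.1 and the labels name nothing that a number marks, the samples were not treated as paired. Over the alternatives other than the fold change threshold, which was not applied to the lists, the genes higher in PEG-fused than in NC PNAs numbered 2 to 4 among other claudins, 5 to 9 among other tight junction genes, 1 to 4 among transporters, 10 to 13 among signaling genes, 2 to 6 among perineurial and 3 to 8 among pericyte markers. The median over all tested genes moved by less than 0.1 on the log2 scale with TMM factors. Only Cdh5 and Pecam1 as endothelial markers was not run, since Pecam1 is not analysed here. Counts of 10 to 56 reads limit Cldn11 and of 32 to 213 reads Mfsd2a in the PNAs, 2 Unop nerves limit each comparison with them, and intervals for counts of 0 cover counting error only.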

Other observations

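Other tissue in the samples differed between the groups as well. Nerve fibroblast markers (11 measured, led by Col3a1) summed to 604440 to 884664 normalized counts in PEG-fused PNAs, 345602 to 521125 in NC PNAs and 385538 to 516994 in Unop nerves. The sum was thus highest in the PEG-fused PNAs, where Col3a1 alone averaged 400687. Single markers did not all share this order. Of the 11 markers, 4 were higher and none lower in PEG-fused than in NC PNAs. That was 36.4% higher, beside 15% of all tested genes. Osr2, a transcription factor of nerve fibroblasts, had a log2 fold change of 1.49 between the PNAs (adjusted p = 0.00102 by limma). In PEG-fused PNAs it was at 33.2% of the Unop mean. Relative to Unop nerves, 6 fibroblast markers were lower and 4 higher in PEG-fused PNAs. That was 54.5% and 36.4%, beside 28.6% and 29.1% of all tested genes. Adipocyte markers (6, led by Cfd) summed to 76665 to 120780 in Unop nerves against 4029 to 9919 in the PNAs. All 6 were lower in both kinds of PNA than in Unop nerves, beside 28.6% (PEG-fused) and 32.3% (NC) of all tested genes. Red blood cell markers (6 measured, led by Hba-a1) summed to 21737 to 52868 in Unop nerves and to 3605 to 7709 in the PNAs. Cldn1, Cldn11, Tjp1, Slc2a1 and Mfsd2a were likewise highest in the Unop nerves, and the part of sheath fat or blood in their levels was not tested.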
